A study of Mus musculus with 6 samples.

Results

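The genes of mitochondrial protein import and the matrix chaperones were followed in GC-2spd cells under normoxia and hypoxia. The set was chosen by name: every annotated mouse gene whose symbol starts with Tomm or Timm, pseudogenes left out, plus Pam16, Dnajc19, Grpel1, Grpel2, Hspa9, Hspd1, Hspe1, Lonp1, Clpp and Clpx. This gave 37 members of 43412 annotated genes, 27 by the name prefixes and 10 by their own names. GC-2spd is an immortalized cell line derived from mouse spermatocytes, and the labels give testis and the strain background C57BL/6J for all samples. Poly(A) RNA was sequenced in 3 libraries of normoxic cells (21% oxygen) and 3 libraries of hypoxia-treated cells (1% oxygen), all of the same line in the same medium with no gene altered between the groups. The labels give no duration of hypoxia. No label states that replicate libraries were grown as separate cultures, so p-values measure only the spread between these samples, which may be technical.

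Nearly all mitochondrial proteins are made in the cytosol and imported. Precursors enter through the TOM complex of the outer membrane, where Tomm20, Tomm22 and Tomm70a are receptors and Tomm40 forms the pore. The TIM23 complex then passes precursors with a presequence across the inner membrane, pulled by a motor built around mortalin, the matrix Hsp70 encoded by Hspa9. Small TIM proteins of the intermembrane space carry hydrophobic precursors to the TIM22 complex, which inserts them into the inner membrane. In the matrix, Hspd1 and Hspe1 form a folding chamber, and Lonp1 and the Clpp and Clpx protease degrade damaged or surplus proteins.

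Aligned sequence amounted to 5.75 to 6.61 gigabases in the normoxic and 5.80 to 6.72 in the hypoxia-treated libraries. Germ cell markers were low or at 0: of 6 (Ddx4, Dazl, Sycp1, Sycp3, Stra8 and Sohlh1) none reached a mean of 1 TPM and 3 were listed at 0 in every library, and the same held for 6 spermatid markers. Their summed level was 0.514 to 0.881 TPM in normoxic and 0.222 to 0.751 TPM in hypoxia-treated libraries for germ cells, and 0 to 0.340 and 0 to 0.0468 TPM for spermatids. Of 5 fibroblast and myoid cell markers, 4 reached 1 TPM, with sums of 2282 to 2353 and 2720 to 2975 TPM, and they did not move together: Col1a1 was higher (log2 fold change 0.57) and Pdgfrb lower (-1.64). Sertoli cell markers (3 of 5 at 1 TPM, Amh and Cldn11 near 0) summed to 42.3 to 53.9 and 44.1 to 55.5 TPM. Sox9 was higher (0.95), and Gata4 (-0.23) and Rhox5 (-0.13) were not called. Leydig cell markers (2 of 4) summed to 3.61 to 6.88 and 7.17 to 10.6 TPM. Insl3 was higher (1.25) and Star was not called (-0.18). Cyp11a1, too low to be tested, went the other way, with 0.350 to 1.17 and 0.0354 to 0.0801 TPM. Of 3 macrophage markers, Ptprc and Adgre1 were at 0 in every library. The 5 hypoxic response genes Vegfa, Car9, Egln3, Bnip3 and Ndrg1 summed to 699 to 709 TPM under normoxia and 2789 to 2847 TPM under hypoxia. Transcripts of the mitochondrial chromosome held 9.25% to 9.29% of TPM in normoxic and 5.49% to 5.59% in hypoxia-treated libraries. That share, Col1a1, Pdgfrb, Sox9 and Insl3 moved with the results below, and their part in them was not tested.

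Most of the tested members were called lower in the hypoxia-treated cells, and the 3 called higher were the matrix protease Lonp1, the matrix Hsp70 Hspa9 and the noncoding gene Tomm6os. TPM (a relative transcript level, scaled for transcript length and for the library's total) was compared as log2(TPM + 1) with limma over all 13749 genes with a mean of at least 1 TPM, and a gene was called at a Benjamini-Hochberg adjusted p under 0.05. Of the 35 members tested, 3 (8.57%) were higher, 20 (57.1%) lower and 12 not called. Across all genes tested, 54.0% were called, 17.9% higher and 36.1% lower. The share of members lower was therefore above the background and the share higher below it. Of the members, 28 of 35 (80.0%) had groups that did not overlap, 23 lower and 5 higher, beside 62.4% of all genes, 41.0% lower and 21.4% higher. The median log2 fold change of the members was -0.40 and that of all genes -0.13, and 23 members lay below and 12 above the median of all genes. The summed TPM of all members was 3330 ± 46.9 (SD, n = 3) in normoxic and 2976 ± 8.81 (SD, n = 3) in hypoxia-treated cells. In bulk RNA, fewer cells of a kind and less RNA per cell cannot be told apart.

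The centring of the libraries bears on these counts. When each library was scaled so that the typical gene did not move (median-ratio scaling), the median of all genes shifted from -0.13 to 0.0014, 26.2% of all genes were higher and 26.3% lower, and 5 members were higher and 18 lower with a median of -0.26. With quantile normalization 5 members were again higher and 18 lower, beside 26.0% and 26.5% of all genes. Lower members outnumbered higher ones under both. The log2 fold changes of Tomm7, Tomm34, Timm8b, Timm10b, Timm29 and Clpx, none of them called, were slightly negative and turned positive with median-ratio scaling. Timm8a2 and Tomm20l, paralogs of Timm8a1 and Tomm20, were listed at 0 TPM in every library and were not tested.

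**Figure D1:**
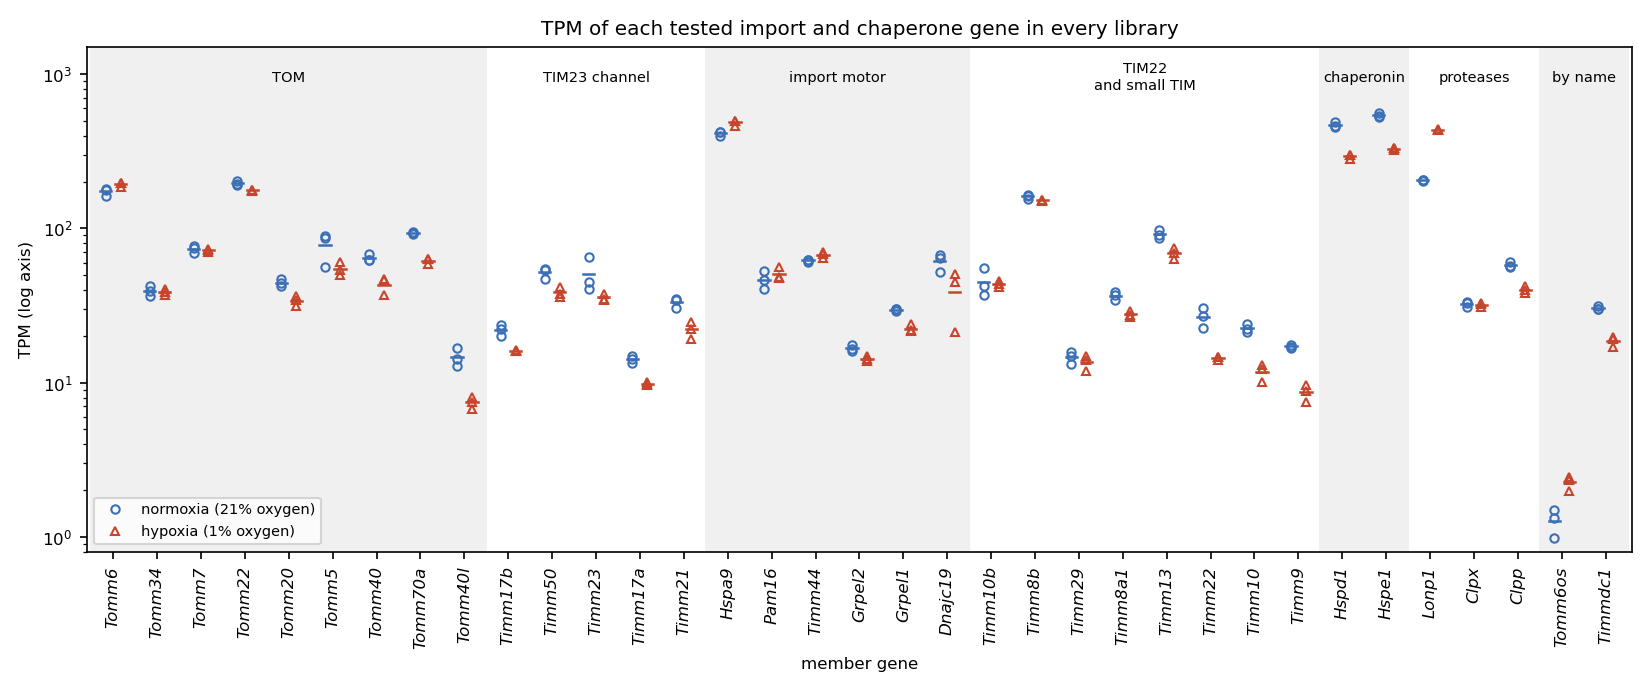
TPM (log axis) of the 35 tested members in each of 3 normoxic (circles) and 3 hypoxia-treated (triangles) libraries, with the group mean as a short line, ordered by role. Hspe1, Hspd1, Hspa9 and Lonp1 stand highest, and the groups of 28 members do not overlap.

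In the TOM complex and among outer membrane receptors, 5 of 9 tested members fell (Tomm20, Tomm22, Tomm40, Tomm40l and Tomm70a), none rose and 4 were not called (Tomm5, Tomm6, Tomm7 and Tomm34). Tomm70a, the receptor for carrier precursors and for precursors held by cytosolic chaperones, had 92.7, 94.3 and 91.6 TPM in normoxic libraries and 62.9, 58.5 and 62.8 TPM in hypoxia-treated libraries. Its groups were far apart beside their spread, and the log2 fold change was -0.59 ± 0.047 (SE, limma adjusted p = 9.9e-05). Tomm40, the pore, had 62.5, 68.1 and 62.3 TPM against 36.7, 46.0 and 46.6 TPM, with no overlap and a log2 fold change of -0.57 ± 0.099 (SE, limma adjusted p = 0.00272). Its low-level paralog Tomm40l had 16.9, 14.3 and 12.8 TPM against 6.79, 8.07 and 7.48 TPM, and every hypoxia-treated library lay under every normoxic one (log2 fold change -0.88 ± 0.12 SE, limma adjusted p = 0.000815). The annotated exons of Tomm40l share 64.3% of their length with Nr1i3 on the other strand, which stood at 2.12 TPM under normoxia and 1.03 TPM under hypoxia, so its reads cannot be fully told apart from that gene's if strand was not kept.

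The 2 other receptors moved less. Tomm20 averaged 44.5 ± 2.16 TPM (SD, n = 3) under normoxia and 33.9 ± 2.48 TPM under hypoxia, a log2 fold change of -0.38. Tomm22, the central receptor, averaged 196 ± 5.99 and 176 ± 2.38 TPM, and its call (log2 fold change -0.16, limma adjusted p = 0.014) was lost with median-ratio scaling, where the change was -0.0093. Of the small subunits that stabilize the pore, Tomm6 had 178, 162 and 181 TPM against 198, 185 and 198 TPM. Its hypoxia-treated libraries all lay above the normoxic ones, but the limma adjusted p was 0.054, and Tomm6 was called higher under both scalings (0.30 and 0.18). Tomm6 shares 76.0% of its exonic length on the same strand with Gm21981, at 68.2 and 74.2 TPM, and its level is uncertain for that reason. Tomm7 averaged 73.6 and 72.0 TPM (adjusted p = 0.657) and Tomm34, a cytosolic cochaperone of import, 39.4 and 38.6 TPM (adjusted p = 0.774). Tomm5 ranged from 56.0 to 89.2 TPM in normoxic and 50.05 to 60.2 TPM in hypoxia-treated libraries, and its log2 fold change of -0.47 (limma adjusted p = 0.063) was not called. Without normoxic replicate 1, the lowest of its group, the change was -0.69 and the adjusted p 0.00198. The summed TPM of the TOM members was 777 ± 5.38 (SD, n = 3) and 681 ± 11.8 (SD, n = 3).

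In the TIM23 channel, 4 of 5 members fell (Timm17a, Timm17b, Timm21 and Timm50), none rose, and Timm23 was not called. All 5 lay below the median change of all genes, and the group's median log2 fold change was -0.45. Timm17a, a channel subunit, had 14.9, 14.3 and 13.4 TPM in normoxic and 10.1, 9.61 and 9.78 TPM in hypoxia-treated libraries. The groups did not overlap and the change was -0.49 ± 0.071 (SE, limma adjusted p = 0.00131). Its paralog Timm17b had 19.9, 23.5 and 22.1 TPM against 16.4, 16.0 and 16.0 TPM, a change of -0.41 ± 0.075 (SE, limma adjusted p = 0.00342) that was not called with quantile normalization (adjusted p = 0.0523). Timm21, which links the TIM23 complex to the TOM complex and the respiratory chain, had 34.7, 34.4 and 30.5 TPM against 19.2, 22.4 and 24.9 TPM (log2 fold change -0.57 ± 0.10 SE, limma adjusted p = 0.00343). Both groups of Timm21 varied by several TPM and still did not overlap.

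Timm50, the presequence receptor that seals the channel, averaged 51.9 ± 4.53 TPM (SD, n = 3) and 38.4 ± 2.79 TPM, a log2 fold change of -0.42. Timm23, the channel protein itself, had 40.5, 65.4 and 44.9 TPM against 35.0, 34.5 and 37.5 TPM. Normoxic replicate 2 alone was high, the groups did not overlap, and the log2 fold change of -0.45 ± 0.17 (SE) missed the threshold (limma adjusted p = 0.0542). Without normoxic replicate 1 the adjusted p was 0.0248 and without normoxic replicate 2 it was 0.0342, with a smaller change of -0.25. The summed TPM of the 5 channel genes was 171 ± 18.6 (SD, n = 3) in normoxic and 122 ± 6.47 (SD, n = 3) in hypoxia-treated cells.

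The import motor was mixed: of 6 members, Hspa9 rose, Grpel1 and Grpel2 fell, and Timm44, Pam16 and Dnajc19 were not called. Hspa9, encoding mortalin, the Hsp70 that pulls precursors into the matrix, had 422, 422 and 399.6 TPM in normoxic and 499, 501 and 462 TPM in hypoxia-treated libraries. The lowest hypoxia-treated library lay above the highest normoxic one, and the log2 fold change was 0.23 ± 0.046 (SE, limma adjusted p = 0.00498). Grpel1, the main nucleotide exchange factor of mortalin, had 29.1, 29.8 and 29.8 TPM against 21.5, 23.8 and 21.9 TPM, so it went the other way from its partner (log2 fold change -0.39 ± 0.060 SE, limma adjusted p = 0.00173). Its exons share 11.6% of their length with Tada2b on the other strand (12.6 and 8.29 TPM). The second exchange factor, Grpel2, had 17.7, 16.6 and 16.1 TPM against 14.2, 14.9 and 13.9 TPM. Its change was small (-0.21 ± 0.067 SE, limma adjusted p = 0.0335) and was lost under both scalings and without any of 4 libraries (hypoxia-treated replicates 1 and 3, normoxic replicates 1 and 2), with an adjusted p of up to 0.104 without a library and of 0.854 with quantile normalization.

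Timm44, which tethers mortalin to the channel, had 62.3, 60.8 and 62.8 TPM against 64.0, 67.9 and 70.1 TPM. The groups did not overlap, the log2 fold change was 0.12 ± 0.051 (SE, limma adjusted p = 0.0889), and Timm44 was called higher under both scalings and without hypoxia-treated replicate 1 (adjusted p = 0.0481). Pam16, a J-like regulator of the motor, ranged from 40.2 to 52.8 TPM under normoxia and from 47.9 to 56.5 TPM under hypoxia, with overlap. Dnajc19, the J protein of the motor, had 64.2, 66.9 and 52.5 TPM against 50.5, 45.0 and 21.2 TPM. Hypoxia-treated replicate 3 alone was far below the rest, and the log2 fold change of -0.73 ± 0.31 (SE) missed the threshold (limma adjusted p = 0.0849). Without that library the change was -0.35 (adjusted p = 0.0542), and without hypoxia-treated replicate 1 it was -0.96 (adjusted p = 0.0455). The summed TPM of the motor was 630.4 ± 15.1 (SD, n = 3) and 681 ± 30.6 (SD, n = 3), of which Hspa9 made up the larger part in every library.

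Among the TIM22 complex and the small TIM chaperones, 5 of 8 tested members fell (Timm9, Timm10, Timm22, Timm13 and Timm8a1), none rose, and Timm8b, Timm10b and Timm29 were not called. Timm9 and Timm10 form the chaperone ring that carries metabolite carriers across the intermembrane space. Timm9 had 17.1, 16.8 and 17.6 TPM in normoxic and 7.51, 9.69 and 8.87 TPM in hypoxia-treated libraries, a log2 fold change of -0.91 ± 0.097 (SE, limma adjusted p = 0.000327). Timm10 had 22.2, 21.3 and 23.9 TPM against 12.3, 12.9 and 10.0 TPM, and its change of -0.88 ± 0.10 (SE, limma adjusted p = 0.000499) was close to that of Timm9. Timm22, the insertion channel that receives this cargo, had 22.7, 27.0 and 30.3 TPM against 14.8, 14.8 and 14.0 TPM (log2 fold change -0.83 ± 0.11 SE, limma adjusted p = 0.0007). In all 3 of these genes the hypoxia-treated libraries lay well under the normoxic ones, and only Tomm40l among the other members fell by as much.

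The other ring, of Timm8a1 and Timm13, which serves Timm23 as a substrate, moved less. Timm8a1 had 38.6, 34.1 and 36.7 TPM against 29.0, 26.7 and 27.4 TPM (log2 fold change -0.38 ± 0.066 SE, limma adjusted p = 0.00268). Timm13 averaged 91.6 ± 5.80 TPM (SD, n = 3) and 69.1 ± 5.77 TPM, a log2 fold change of -0.40. Timm8b, a paralog of Timm8a1 and the most abundant small TIM per length, had 156, 166 and 162 TPM against 153, 151 and 154 TPM. Its groups did not overlap, by a narrow gap, and it was not called (log2 fold change -0.079 ± 0.040 SE, limma adjusted p = 0.133). Timm10b, which docks the small TIM ring on the TIM22 complex, ranged from 36.9 to 55.6 and from 42.0 to 45.6 TPM, and Timm29, a TIM22 subunit, from 13.2 to 15.9 and from 11.9 to 14.9 TPM. The summed TPM of the group was 415 ± 8.99 (SD, n = 3) and 342 ± 3.87 (SD, n = 3).

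Both subunits of the matrix chaperonin fell, and they were the most abundant members that did. Hspd1, the barrel subunit HSP60, had 489, 458 and 452 TPM in normoxic and 298, 297 and 283 TPM in hypoxia-treated libraries (log2 fold change -0.67 ± 0.045 SE, limma adjusted p = 4.65e-05). Hspe1, the lid subunit HSP10, had 557, 529 and 539 TPM against 322, 333 and 330.3 TPM (log2 fold change -0.72 ± 0.036 SE, limma adjusted p = 1.64e-05). The groups of both were separated by more than the spread within either. Together they gave 1008 ± 33.3 TPM (SD, n = 3) under normoxia and 621 ± 9.05 TPM (SD, n = 3) under hypoxia. The genes are neighbours on chromosome 1 and are transcribed away from each other, Hspd1 at 55077835 to 55088243 on the minus strand and Hspe1 at 55088132 to 55091307 on the plus strand (mm10). Their annotated exons overlap by 112 bases. The pseudogene Hspd1-ps3, which could take reads of Hspd1, was listed at 7.80 to 22.9 TPM over the 6 libraries, and the other pseudogenes of Hspd1 and Hspe1 stayed under 0.4 TPM.

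Part of the stretch between the opposed starts is shown because both genes, which fell together, share that stretch. The part was cut around the letters capitalized in it and is not the whole stretch, as the nearer starts lie 216 bases apart. Other matches in the promoter window of Hspd1, described below, are not printed. The part shown is 30 bases of the plus strand from the RefSeq promoter table (GRCm38.p6), at chr1:55088054-55088083. It lies between the RefSeq starts of Hspd1 at 55087932 and of Hspe1 at 55088148. RefSeq lists a further Hspd1 start at 55088243, and counted from that start the part shown lies inside Hspd1. Capitals mark the letters GAANNTTC, a pair of inverted heat shock units, and CGGAAG, the core that ETS factors recognise, which overlap each other here.
Hspd1-Hspe1: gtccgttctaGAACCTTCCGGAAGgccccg

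The matrix proteases went different ways. Lonp1 rose, Clpp fell and Clpx was not called. Lonp1, the main ATP-dependent protease of the matrix, had 204, 207 and 207 TPM in normoxic and 434, 433 and 444 TPM in hypoxia-treated libraries. The spread within each group was a few TPM and the level under hypoxia was 2.12 times that under normoxia. The log2 fold change was 1.08 ± 0.033 (SE, limma adjusted p = 2.34e-06), and leaving out any library kept the adjusted p between 3.76e-05 and 4.77e-05. Lonp1 was the only member called with a change of at least 2-fold, which 8.06% of all genes showed, and it ranked 323rd of 13749 genes from the largest increase. Under normoxia Lonp1 stood below Hspd1 in every library, and under hypoxia above it in every library.

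Clpp, the peptidase of the second protease, had 60.7, 56.4 and 57.3 TPM against 38.2, 39.8 and 42.1 TPM, a log2 fold change of -0.53 ± 0.058 (SE, limma adjusted p = 0.000365). Clpx, the unfoldase that feeds Clpp, had 33.5, 30.8 and 32.7 TPM against 30.8, 32.7 and 32.2 TPM, with overlapping groups and a log2 fold change of -0.017 ± 0.058 (SE, limma adjusted p = 0.82). The proteases summed to 296 ± 1.87 TPM (SD, n = 3) and 509 ± 8.44 TPM (SD, n = 3), and Lonp1 made up the increase.

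The promoter of Lonp1 is shown because this gene moved most. The 250 bases before its RefSeq start, chr17:56626904-56627153 (GRCm38.p6, minus strand, printed 5′ to 3′ in the direction of transcription), are given with the hypoxia response cores ACGTG and GCGTG and the E-box CACGTG in capitals. GCGTG reads CACGC on the strand printed, at 4 places that begin at -193, -146, -98 and -50 from the start. CACGTG, at -36 to -31, holds ACGTG on both strands.
Lonp1: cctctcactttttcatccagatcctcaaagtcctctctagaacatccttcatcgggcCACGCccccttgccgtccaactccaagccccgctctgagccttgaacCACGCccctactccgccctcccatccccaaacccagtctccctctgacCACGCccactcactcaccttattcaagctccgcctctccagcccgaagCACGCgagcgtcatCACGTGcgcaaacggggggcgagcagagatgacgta

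The same E-box occurred beside genes that fell. For Timm9, the member with the most negative change, 30 bases of the minus strand at chr12:71136716-71136745 are given in the direction of transcription, with CACGTG in capitals, beginning 58 bases before the RefSeq start.
Timm9: cctacattttccCACGTGgtaacgaatctg

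Promoter windows of 300 bases (250 before to 50 after the RefSeq start) were found for 32 of the 37 members, in 35 windows. Tomm40l, Timm21, Tomm7, Grpel2 and Hspa9 had no entry. Both strands were searched, and matches are a description of letters. CACGTG was in 8 of the 35 windows (22.9%), beside 7.15% of all 32851 windows and 10.0% of the 11697 windows of tested genes. The 8 genes were Lonp1 and Tomm6os, which were higher, Timm9, Timm10, Timm8a1, Tomm20 and Hspd1, which were lower, and Tomm20l, which was not tested. GCGTG was in 62.9% of member windows, beside 51.7% of those of tested genes, and ACGTG in 31.4% beside 25.5%. Of the 17 lower members with a window, 10 held GCGTG and 6 ACGTG, and the 2 higher ones held both. CGGAAG was in 16 windows (45.7%, beside 31.7% of those of tested genes), of 9 of the 17 lower members with a window and neither of the 2 higher ones. It was also in windows of Timm10b, Timm23, Timm29, Timm8b and Tomm34, which were not called, and of Timm8a2, which was not tested. GAANNTTC was in windows of Hspd1, Hspe1 and Timm9 (8.57%, beside 5.56%), and CCAAT was in 31.4% beside 38.5%. The window of Hspe1 overlaps one of Hspd1, and the 30 bases shown above lie in both. Their GAANNTTC and CGGAAG were therefore counted for both genes, so these counts are not of separate sites. The full NRF1 motif and TGATGNAA, the ATF4 composite, were in no member window, and 2.14% and 2.04% of windows of tested genes held them.

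The name rule also took genes that are not import components. Timmdc1, an assembly factor of respiratory complex I, averaged 30.4 ± 0.734 TPM (SD, n = 3) under normoxia and 18.6 ± 1.36 TPM under hypoxia (log2 fold change -0.68 ± 0.069 SE, limma adjusted p = 0.000263). Tomm6os is a noncoding gene opposite Tomm6, listed at 0.981 to 1.5 TPM under normoxia and 2.0 to 2.45 TPM under hypoxia. It was called higher (log2 fold change 0.53 ± 0.15 SE, limma adjusted p = 0.0226), and the call was lost without normoxic replicate 3, hypoxia-treated replicate 1 or hypoxia-treated replicate 2, where the adjusted p was up to 0.073. Its exons overlap those of Tomm6, Gm21981, Prickle4 and Frs3, and its reads cannot be told apart from those of Tomm6, which is far more abundant, if strand was not kept.

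**Figure D2:**
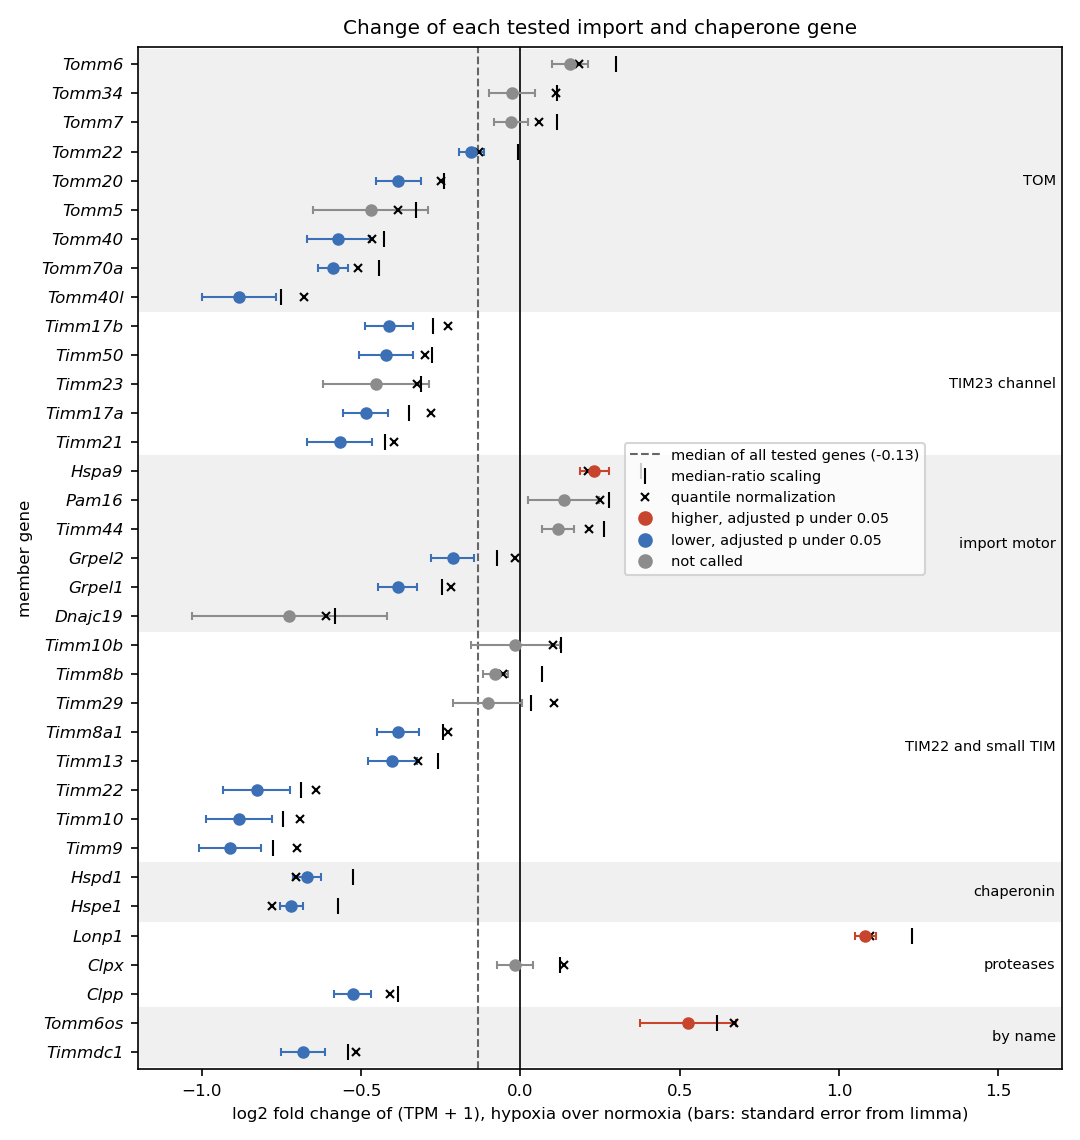
Log2 fold change of (TPM + 1), hypoxia over normoxia, of the 35 tested members with the standard error from limma, and the values under median-ratio scaling (ticks) and quantile normalization (crosses), with the median of all genes (-0.13) dashed. Lonp1 stands alone at 1.08, the TIM23 channel genes lie together between -0.57 and -0.41, and Timm9, Timm10, Timm22 and Tomm40l lie lowest.

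Ratios of partners within a library do not depend on the scaling between libraries. For 6 pairs of paralogs or partners the log2 ratio of (TPM + 1) was compared by an exact permutation test over the 6 libraries (2-sided), which cannot give a p below 0.1 with 3 libraries against 3, or below 0.15 here after adjustment over the 6 pairs. Clpp to Clpx showed the widest gap: the ratio of the TPM was 1.80 ± 0.041 (SD, n = 3) under normoxia and 1.26 ± 0.048 under hypoxia, a log2 difference of -0.51 (exact permutation p = 0.1, adjusted 0.15). The groups did not overlap, so that the peptidase mRNA approached the unfoldase mRNA in hypoxia-treated cells without reaching its level. Tomm40 to Tomm40l differed by 0.31 on the log2 scale, from 4.45 ± 0.649 to 5.78 ± 0.416, and by 0.19 without normoxic replicate 1, the lowest of its group. Timm8a1 to Timm8b changed by -0.31, from 0.227 ± 0.021 to 0.182 ± 0.0072, and Grpel1 to Grpel2 by -0.17, from 1.77 ± 0.109 to 1.56 ± 0.042. In each of these 3 pairs the groups did not overlap and the exact permutation p was 0.1 (adjusted 0.15).

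Hspd1 to Hspe1 stood at 0.861 ± 0.021 and 0.891 ± 0.035, with overlapping groups (log2 difference 0.050, exact permutation p = 0.3, adjusted 0.36). Timm17a to Timm17b stood at 0.653 ± 0.081 and 0.609 ± 0.0085, with overlapping groups (log2 difference -0.074, exact permutation p = 0.9). Its 3 hypoxia-treated libraries were within 0.60 to 0.62, while normoxic replicate 1 was high at 0.746, and without that library the log2 difference was 0.021.

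**Figure D3:**
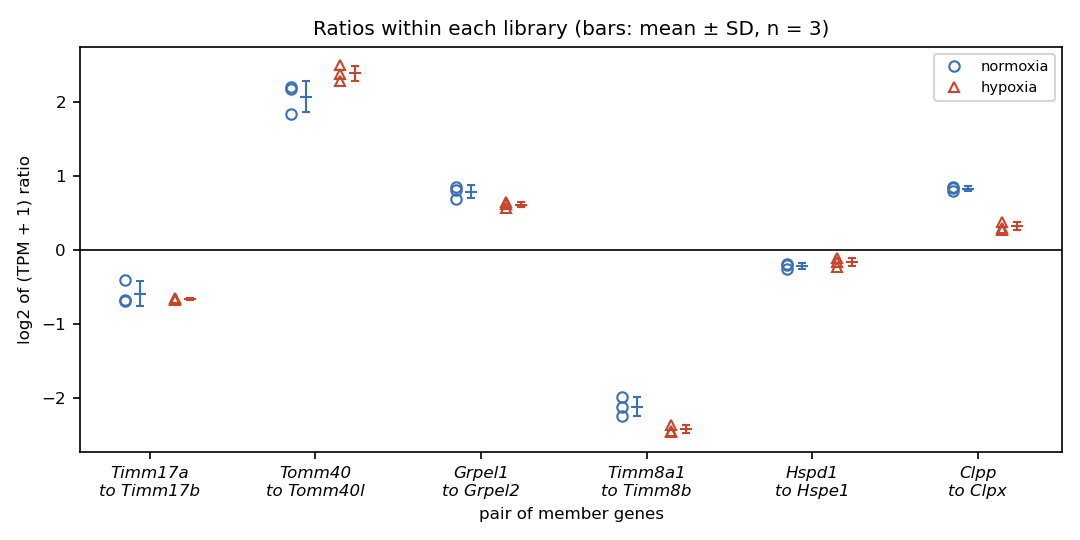
Log2 ratio of (TPM + 1) for 6 pairs of members in each normoxic (circles) and hypoxia-treated (triangles) library, with mean ± SD (n = 3). The groups of Clpp to Clpx are the farthest apart, and those of Timm17a to Timm17b and of Hspd1 to Hspe1 overlap.

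The deposited values also list loci assembled from the reads, and these were set beside the annotated genes. For each gene and library, the overlapping assembled locus on its strand with the highest TPM was taken, so it can cover more than the gene. For 21 members the assembled locus on the same strand was within 10% of the annotated value in every library that had one, and for 14 it was not. Dnajc19 in hypoxia-treated replicate 3, the low value above, was 21.2 TPM by annotation and 63.2 TPM by the assembled locus, while in the other 5 libraries the assembled values were 48.6 to 68.1 TPM. Timm23 had 80.5, 70.7 and 66.0 TPM in normoxic and 68.1, 61.2 and 29.9 TPM in hypoxia-treated libraries by the assembled locus, so that its groups overlapped, unlike by annotation, and hypoxia-treated replicate 3 in place of normoxic replicate 2 stood apart. For these genes the spread within a group therefore depended on which value was taken. The assembled locus of Tomm6 lay far above the annotated value in every library, and the annotated value was 49.3% to 51.5% of it. For Timm17a the assembled value of hypoxia-treated replicate 3 was 57.4 TPM beside 9.78 TPM by annotation, and with assembled values the log2 fold change was 0.34 (limma adjusted p = 0.666) in place of -0.49. Its other assembled values were 15.3, 14.3 and 13.4 TPM in normoxic and 10.5 and 9.94 TPM in hypoxia-treated libraries. For Timm50 the assembled locus lay above the annotated value in every library, and the log2 fold change was -0.38 (limma adjusted p = 0.0343) in place of -0.42. Lonp1 had no separate assembled locus in hypoxia-treated replicate 1, and in the other hypoxia-treated libraries the assembled locus had 425 and 436 TPM. Of the 30 members with an assembled locus in every library, 27 kept their side of the threshold with assembled values, and Timm17a, Timmdc1 (adjusted p = 0.053) and Grpel2 (adjusted p = 0.205) did not. The log2 fold changes of Timmdc1 (-1.28 in place of -0.68) and Grpel2 (-0.36 in place of -0.21) were then more negative. By the assembled locus, Timmdc1 had 116 TPM in normoxic replicate 3 beside 33.3 and 31.7 TPM in the other normoxic libraries. Grpel2 had 30.7 TPM in normoxic replicate 1 beside 16.6 and 16.9 TPM. Of the 27, Timm29 and Timm10b, which were not called, turned from negative to 0.35 and 0.072.

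**Figure D4:**
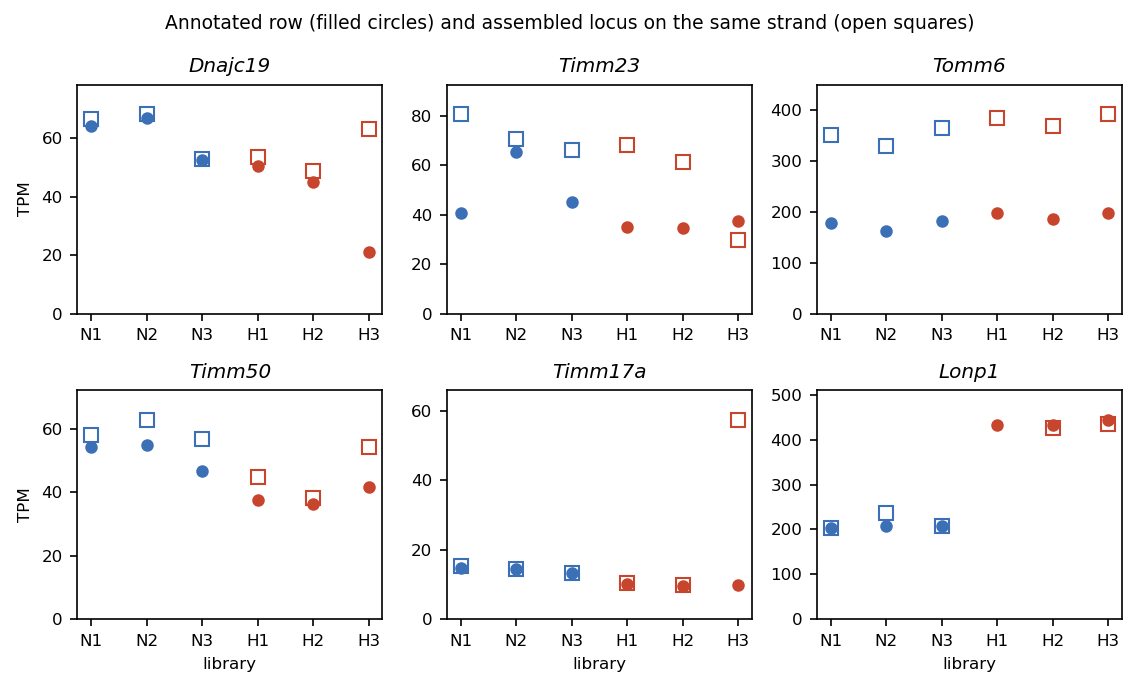
TPM of 6 members by annotation (filled circles) and by the assembled locus on the same strand (open squares) in the normoxic (N1 to N3) and hypoxia-treated (H1 to H3) libraries. The 2 values part most in H3 for Dnajc19 and Timm17a, in N1, N3, H1 and H2 for Timm23, and in all libraries for Tomm6. They part less in all libraries for Timm50, in H3 for Timm23 and in N2 for Lonp1.

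Further genes of the pathway were taken from 6 lists. Of their 44 genes, all tested, 1 was higher (2.27%), 26 were lower (59.1%) and 17 were not called, beside 17.9% higher and 36.1% lower among all genes tested, and their median log2 fold change was -0.23. Under median-ratio scaling 6 were higher and 18 lower (26.2% and 26.3% of all genes), and under quantile normalization 4 and 20 (26.0% and 26.5%). The calls of Mtx2, Afg3l2, Dnajb6 and Ubqln2 were lost under both scalings and each without at least 4 of the 6 libraries, with an adjusted p of up to 0.122, 0.107, 0.0898 and 0.131.

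Listed together were the intermembrane space pathway that folds small TIM proteins with disulfide bonds, the inner membrane insertase and Romo1. Of these 5 genes, 4 were lower (Chchd4, Romo1, Oxa1l and Aifm1), none was higher, and Gfer was not called. Chchd4, the oxidoreductase that traps small TIM precursors, had 28.6, 31.6 and 30.7 TPM in normoxic and 13.7, 13.7 and 12.7 TPM in hypoxia-treated libraries (log2 fold change -1.12 ± 0.067 SE, limma adjusted p = 3.05e-05). It fell by more than its substrates Timm9 and Timm10, though the difference was not tested. Gfer, the oxidase that recharges Chchd4, had 43.8 to 45.3 and 46.8 to 48.6 TPM. Its groups did not overlap. It was called higher with median-ratio scaling (log2 fold change 0.24, limma adjusted p = 0.00659) and quantile normalization (0.21, limma adjusted p = 0.012). Romo1, a small inner membrane protein, had 79.8, 74.7 and 82.5 TPM against 44.5, 45.0 and 47.4 TPM (log2 fold change -0.78, limma adjusted p = 6.12e-05).

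Of 9 proteases of the inner membrane and intermembrane space with the prohibitins, 6 were lower (Htra2, Phb, Oma1, Yme1l1, Afg3l1 and Afg3l2), none higher, and Spg7, Phb2 and Clpb were not called. Under median-ratio scaling 5 were lower and under quantile normalization 4, without Afg3l2 (log2 fold change 0.014 and -0.024) and, in the second, Afg3l1 (adjusted p = 0.0692). Htra2, a serine protease of the intermembrane space, had 101, 106 and 122 TPM against 48.9, 43.0 and 44.1 TPM, the most negative change on the lists (-1.25 ± 0.086 SE, limma adjusted p = 5.09e-05). Phb, a scaffold subunit around the inner membrane proteases, had 143, 136 and 138 TPM against 96.2, 100.3 and 77.2 TPM (log2 fold change -0.61, limma adjusted p = 0.00189).

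Of 7 presequence and peptide processing enzymes, 2 were lower (Pmpca and Pitrm1; 28.6%, under the 36.1% of all genes), none was higher, and Pmpcb, Mipep, Xpnpep3, Immp1l and Immp2l were not called. With median-ratio scaling and quantile normalization 2 were again lower, now above the 26.3% and 26.5% of all genes, and Immp1l was called higher. Pmpca, a subunit of the processing peptidase, had 87.4, 89.0 and 97.0 TPM against 63.0, 60.8 and 57.0 TPM (log2 fold change -0.59, limma adjusted p = 0.0003), while its partner Pmpcb ranged from 88.8 to 137 and from 112 to 121 TPM. Without normoxic replicate 1, the lowest of its group, Pmpcb was also called lower (limma adjusted p = 0.0195). Pitrm1, which degrades freed presequences, had 103, 102 and 98.2 TPM against 72.1, 77.6 and 70.5 TPM (log2 fold change -0.46, limma adjusted p = 0.000422).

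Of 6 other matrix chaperones and cochaperones, Trap1, Dnlz, Bcs1l and Dnajc15 were lower, none was higher, and Dnaja3 and Hscb were not called. Dnaja3 had 54.6, 51.5 and 54.2 TPM against 61.7, 63.5 and 28.7 TPM. Without hypoxia-treated replicate 3, which alone was far lower, Dnaja3 was called higher (limma adjusted p = 0.0162). Under both scalings Dnajc15 was not called (adjusted p = 0.083 and 0.103) and Hscb, an iron-sulfur cluster cochaperone, was higher (adjusted p = 0.00531 and 0.00479). Trap1, the mitochondrial Hsp90, had 98.4, 94.3 and 92.9 TPM against 67.5, 66.3 and 63.6 TPM (log2 fold change -0.53, limma adjusted p = 0.000145). Dnlz, which keeps mortalin soluble, had 18.6, 16.8 and 18.7 TPM against 11.5, 9.94 and 10.7 TPM (log2 fold change -0.70, limma adjusted p = 0.000468), so that this partner of mortalin, like Grpel1, was lower where Hspa9 was higher. Not all partners went that way: Timm44, which tethers mortalin, was not called and was higher under both scalings.

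Of 5 genes of the SAM complex, which inserts barrel proteins such as Tomm40 into the outer membrane, Dnajc11, Samm50 and Mtx2 were lower, none was higher, and Mtx1 and Mtx3 were not called. Dnajc11, a J protein that binds the complex, had 29.8, 32.6 and 33.0 TPM against 18.4, 16.2 and 17.7 TPM (log2 fold change -0.83, limma adjusted p = 0.000141). Samm50, its central barrel, had 129, 125 and 125 TPM against 109, 110.0 and 109.6 TPM (log2 fold change -0.20, limma adjusted p = 0.00396), and Samm50 and Mtx2 were not called with median-ratio scaling. Under that scaling 1 of the 5 genes was lower, beside 26.3% of all genes.

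Of 12 cytosolic chaperones that carry precursors, Bag6 was higher, 7 were lower (Hspa4, Dnaja2, Dnaja1, Hsp90aa1, Dnajb1, Dnajb6 and Ubqln2), and Hspa8, Hsp90ab1, Ubqln1 and Stip1 were not called. Bag6, which handles exposed membrane segments, had 212, 208 and 228 TPM against 309, 293 and 267 TPM (log2 fold change 0.42, limma adjusted p = 0.00161). Hspa4, an exchange factor of the cytosolic Hsp70, had 175, 173 and 174 TPM against 110.4, 112 and 109 TPM (log2 fold change -0.65, limma adjusted p = 2.22e-05), and Dnaja2, a J protein, 357, 347 and 359 TPM against 258, 256 and 275 TPM (log2 fold change -0.43, limma adjusted p = 0.000195). The share lower was 58.3%, beside 36.1% of all genes. Under median-ratio scaling 3 of the 12 genes were higher and 3 lower, near the 26.2% and 26.3% of all genes. With quantile normalization 1 was higher and 5 lower, beside 26.0% and 26.5%.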

How the data were processed

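Poly(A) RNA was read as pairs on a NovaSeq. The authors trimmed with Cutadapt, mapped to mm10 with HISAT2 and used StringTie for quantification (versions and annotation release not given in the sources used here). The deposited TPM covers annotated genes and, in rows of their own, assembled loci. Only annotated genes were tested, and they sum to 948283.6 to 981417.5 TPM per library. The deposited FPKM served as an alternative and the deposited coverage only for depth. There are no counts among the values used, so limma replaced the authors' edgeR.

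Gene IDs were matched to GENCODE release 21 (42462 of 43432). Genes with a mean of at least 1 TPM were tested as log2(TPM + 1), which understates the change of low genes, with limma 3.58.1 in R 4.3.3 (trend, 2-sided, Benjamini-Hochberg, threshold 0.05). The steps were tested on simulated data. Depth is given as aligned bases, without counting intervals, and 3 libraries per group limit the precision. Members and lists were chosen with earlier results of these data known. Every tested member is named. Values in each library are given for up to 3 members per role and direction with the smallest adjusted p, members of the pairs, and the most abundant uncalled member of a role; of each list, up to 2 genes per direction. Dnajc19 was singled out after its values were seen. Promoters are from RefSeq (GRCm38.p6). Alternatives were other pseudocounts, filters, scalings, FPKM, no variance trend, a replicate block, leaving out each library and, added after seeing the data, assembled loci.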

Additional observations from a re-analysis of the deposited data

How the results depend on the processing

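Of the 35 tested members, 23 kept their call under every alternative run for them, of 16, and 12 did not (assembled loci could be used for 30 members). Members higher numbered 3, and 5 under each of median-ratio scaling and quantile normalization, where the median log2 fold change of the members was -0.26 and -0.25 in place of -0.40. Leaving out each library gave 2 to 3 members higher, 19 to 21 lower and a median of -0.41 to -0.36. List genes higher numbered 1, and 6 with median-ratio scaling, 4 with quantile normalization and 1 to 2 with each library left out (2 without hypoxia-treated replicate 3). With assembled loci Timm17a reversed to 0.34, with hypoxia-treated replicate 3 far above the other libraries. The log2 ratio of Timm17a to Timm17b was -0.12 to 0.021 with each library left out, reversed only without normoxic replicate 1.

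The replicate numbers did not pair the libraries: deviations of same-numbered libraries correlated at 0.026, 0.033 and 0.011. With the replicate as a block, 4 members were higher and 20 lower, Grpel2 lost its call (limma adjusted p = 0.0669), and Dnajc19 (0.0295) and Tomm6 (0.0337) gained one. With FPKM in place of TPM, Timm23, Timm8b and Tomm5 were called lower. Without counts, the sampling error of members at a few TPM is unknown.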
